A study of Mus musculus with 6 samples.

Results

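Carriers of inorganic ions and metals were examined in sorted intestinal cells. The genes were chosen by symbol: each gene of 14 Slc families that move bicarbonate, chloride, sulfate, protons, sodium, calcium, phosphate, zinc, iron, copper, manganese or magnesium, and which the array annotation names alone on a probe set. They numbered 81 of the 18193 genes measured. Of these, 78 are carriers, and 3 (Slc4a1ap, Slc9a3r1 and Slc9a3r2) are adaptor proteins whose symbols begin in the same way. Expression was measured on 6 Affymetrix arrays, 3 of EGFP-positive cells and 3 of non-fluorescent cells sorted in equal number from enzyme-dissociated intestine of adult Swiss Webster mice. All donors, those of the non-EGFP cells included, carried the CCK-EGFP transgene, which marks cells that express the hormone cholecystokinin. Neither the promoter that drives the transgene nor any pooling of mice is stated in the sources used here. Whether each sample of a group is a different animal is not stated either, and p-values therefore reflect spread among these samples alone, part of which may be technical.

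Ion carriers are membrane proteins that use a gradient, most often that of sodium or protons, to move a second ion. In the gut, sodium-proton exchangers and anion exchangers of the brush border absorb salt, bicarbonate cotransporters on the blood side supply secretion, and metal carriers take up dietary zinc, iron and copper and pass them on. In excitable and hormone-secreting cells, carriers of the same families clear calcium after stimulation, set the chloride gradient and load vesicles with zinc.

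Values are log2 RMA intensities, on which 1 unit is a doubling. A level of 4.60, the 95th percentile of the means of 71 olfactory and vomeronasal receptor genes, was taken as background, and for a group mean under this level a fold is given against the level itself, as a lower bound. The enteroendocrine label was checked on 12 markers, all of which were higher in CCK-EGFP cells, with a mean level of 12.95 to 13.26 against 8.70 to 9.09. Cck, the gene of the hormone that the transgene marks, was among the 12, and its direction followed from the sort. Of 10 enterocyte markers, 0 were higher and 3 lower, none was below background, and their mean level was 12.49, 12.56 and 13.24 on CCK-EGFP replicates 1 to 3 against 13.55 to 13.62 on the non-EGFP arrays. With replicate as a block 1 of these markers, Slc5a1, was lower, and Mttp (adjusted p = 0.0550) and Treh (0.0527) did not pass. Of 8 goblet cell markers 1, Agr2, was higher and 2, Muc2 and Spdef, were lower, with mean levels of 12.19 to 12.60 against 12.75 to 12.94. Of 6 myeloid markers 0 were higher and 1, Cd14, was lower (5.35 to 6.34 against 6.79 to 7.40), Adgre1 and Itgam were below background in both groups, and Lyz2 was lower with the block as well (adjusted p = 0.0253). The part of these cell types in the lower carriers was not tested. Of 7 tuft cell markers, 4 were higher and 0 lower (mean 7.496 to 8.70 against 5.65 to 6.26), and 1, Pou2f3, was below background in both groups. With the block 3 were higher, as Gfi1b did not pass (adjusted p = 0.0581). Of 6 markers of enteric neurons and glia, 3 were higher and 0 lower (5.78 to 6.16 against 4.24 to 4.79). The higher ones were Ret (at least 69.8-fold), Uchl1 (at least 12.1-fold) and Gfap, which lay near background (at least 1.07-fold). Elavl4 (-0.68), Sox10 (-0.92) and S100b (-0.61) differed the other way without passing, with CCK-EGFP means below background. Counted from the background level, these differences were -0.11, -0.69 and -0.09. Means of 7 T and NK lymphocyte markers overlapped (9.52 to 11.76 against 10.26 to 11.62). The submitters' description field reads enteroendocrine for both groups.

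The carriers went both ways. In CCK-EGFP cells 13 of the 81 genes were higher and 17 lower (limma, Benjamini-Hochberg adjusted p under 0.05 over all genes), and 51 did not pass. That is 37.0% of the members called, where 24.1% of all genes were called. Among genes with a group mean above background, a choice that itself depends on the groups' levels, 44.1% of 68 members and 30.8% of all such genes were called. The share was 16.0% higher and 21.0% lower among members, against 14% and 10.2% of all genes. These shares of all genes are the reference for each family and partner count below. The median log2 difference, CCK-EGFP minus non-EGFP, was -0.39 over the members and -0.17 over all genes. The arrays of the groups did not overlap for 51 of the 81 members, where this held for 49.9% of all genes. Log2 differences of 3 or more were found in 6 higher and 2 lower members. All these calls come from a fit that did not use the replicate number. With the number as a block 11 members were higher and 18 lower, where 21.3% of all genes were called. In bulk samples, fewer cells of a type and less RNA per cell cannot be told apart.

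Counts of lower genes depended on single arrays, among the members and over all genes. Without CCK-EGFP replicate 1, 7 members were lower, without replicate 2, 4, without non-EGFP replicate 1, 11, and without non-EGFP replicate 2, 7. In the same order 666, 505, 1021 and 880 of all genes were lower, where the main fit gave 1851. Higher members numbered 7 without CCK-EGFP replicate 2, and higher genes in all 1365, where the main fit gave 2540. Such fits also rest on fewer arrays. With each array centred on its median, which moved the median difference of all genes by -0.25, 12 members were higher and 27 lower. Over all genes that centring gave 2101 higher and 3605 lower, where the deposited scale gave 2540 and 1851. Among the 17 lower members, CCK-EGFP replicate 3 was the highest of its group for 15 (88.2%), where this held for 51.9% of all genes called lower. The same array had the highest mean of its group for enterocyte markers, and also for goblet, Paneth, stem cell, lymphocyte, myeloid and stromal markers. It was not the highest for enteroendocrine, tuft, neuron and glia or erythroid markers. The part of carried-over RNA from any of these cell types in these values was not tested. Among the 13 higher members, the same array was the lowest of its group for 6 (46.2%), where this held for 61.9% of all genes called higher. Without replicate 3 the counts were 12 higher and 18 lower.

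**Figure D1:**
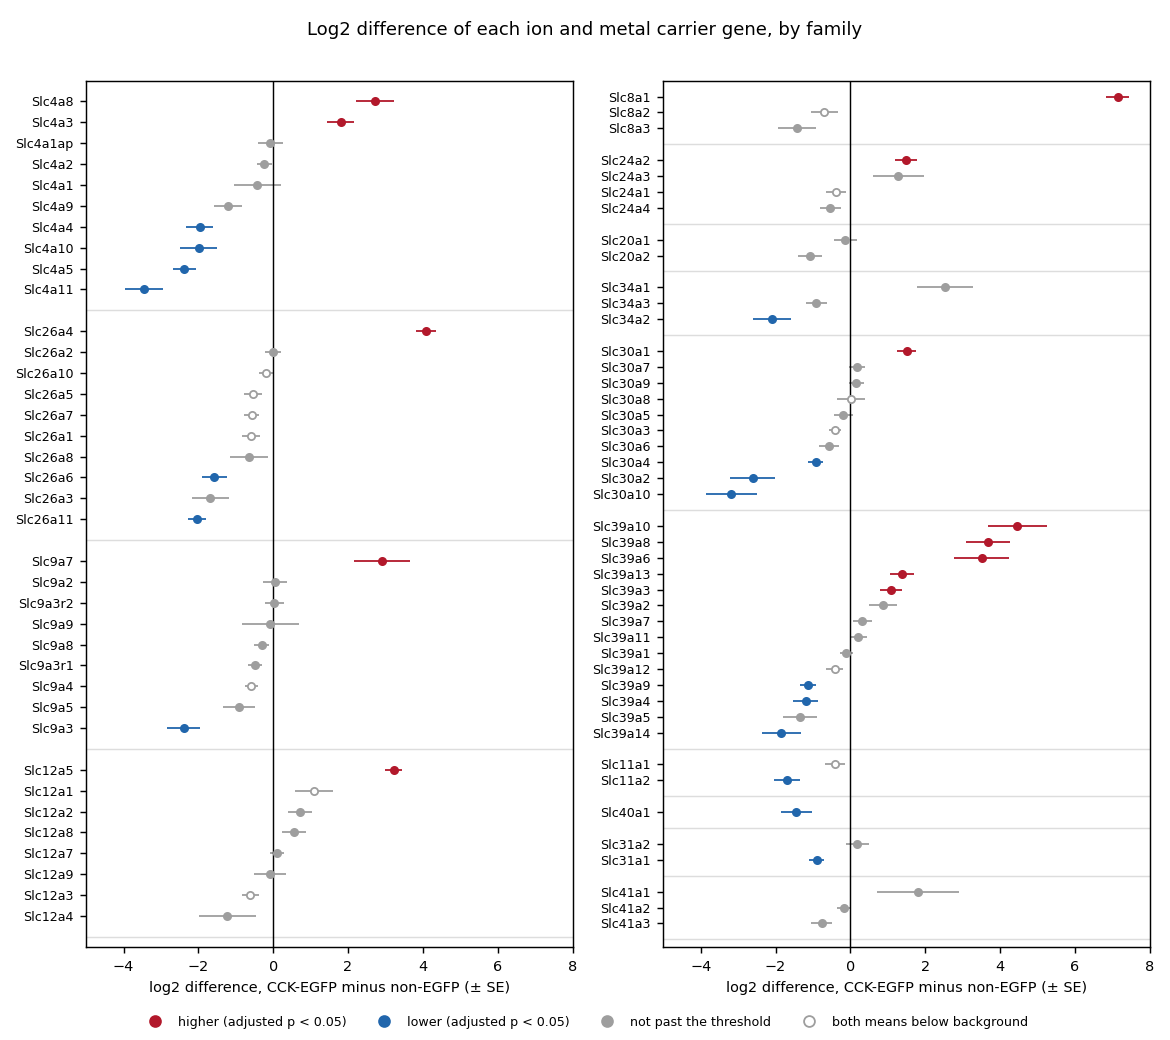
Each point is 1 of the 81 genes, placed by its log2 difference (CCK-EGFP minus non-EGFP, bars ± SE, n = 3 arrays per group) and grouped by family. Slc8a1 stands at 7.15 on the right, Slc4a11 at -3.46 and Slc30a10 at -3.19 on the left, and open points are genes with both means below the background level.

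**Figure D2:**
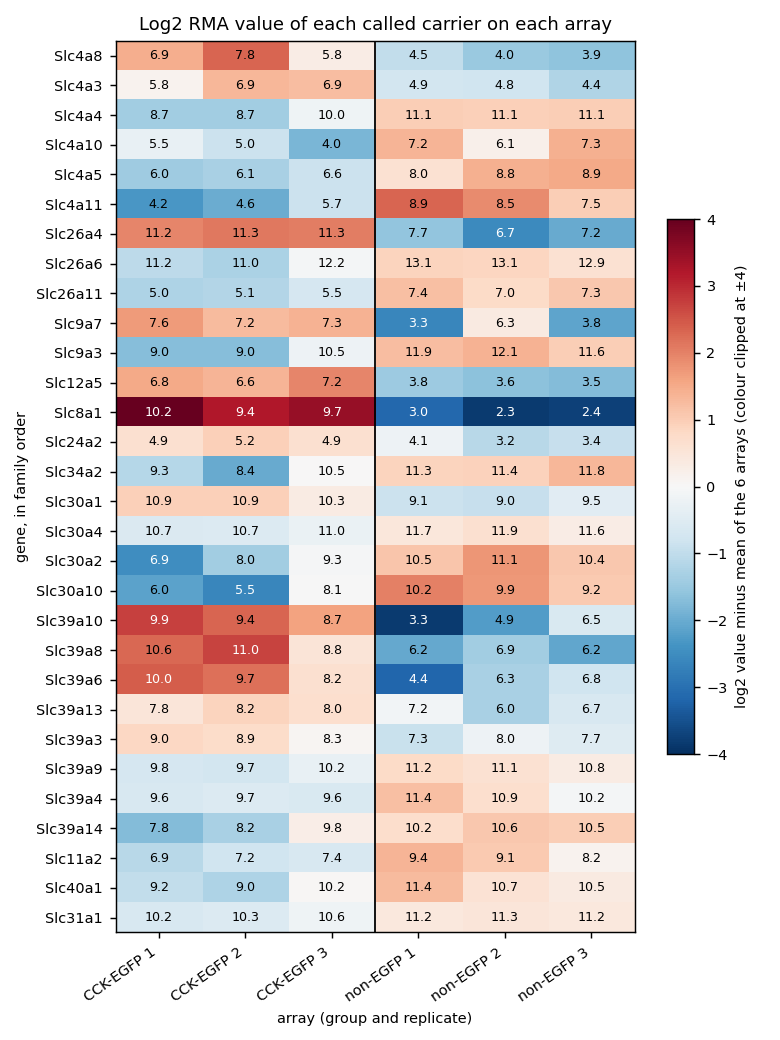
Each cell gives the log2 value of 1 called gene on 1 array, coloured by its distance from the gene's mean over the 6 arrays. The 13 higher genes are red on the left, and the 17 lower genes are blue on CCK-EGFP replicates 1 and 2 or pale, with replicate 3 the highest of its group in 15 of them.

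Calcium exchangers gave the largest difference of the whole set. Slc8a1, a plasma membrane sodium-calcium exchanger that expels calcium after excitation, read 10.21, 9.38 and 9.66 in CCK-EGFP cells against 3.05, 2.34 and 2.43 in non-EGFP cells. All non-EGFP values were below background, and the level in CCK-EGFP cells was at least 35.6-fold higher (log2 difference 7.15, SE 0.30, adjusted p = 0.000104). The 4 probe sets of the gene did not move alike. The others stood at 2.13, 1.34 and -0.41, and the last of these was below background in both groups. The related Slc8a3 read 3.97, 3.95 and 4.20 against 6.52, 5.50 and 4.41 (adjusted p = 0.0831), so its non-EGFP arrays were above its CCK-EGFP arrays, and without non-EGFP replicate 3 it passed (adjusted p = 0.0179). Slc8a2 was below background in both groups.

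Of the 4 potassium-dependent sodium-calcium exchangers, 1 was higher. Slc24a2, known from neurons and cone photoreceptors, read 4.92, 5.24 and 4.94 against 4.09, 3.17 and 3.38. It lay just above background in CCK-EGFP cells and was at least 1.35-fold higher (log2 difference 1.48, SE 0.28, adjusted p = 0.0141). Its other probe set differed by -0.15, and the call ended without CCK-EGFP replicate 2 (adjusted p = 0.0610). Slc24a4, the brightest of the others, averaged 4.99 ± 0.18 (SD, n = 3) against 5.53 ± 0.47 (adjusted p = 0.187), Slc24a3 spread from 3.55 to 5.92 in CCK-EGFP cells, and Slc24a1 was below background.

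Pendrin led the anion exchangers of the Slc26 family. Slc26a4, which encodes this exchanger of chloride, iodide and bicarbonate known from thyroid, inner ear and kidney, read 11.20, 11.34 and 11.29 in CCK-EGFP cells. On the non-EGFP arrays it read 7.66, 6.68 and 7.23. The gap was 17.0-fold (log2 difference 4.09, SE 0.28, adjusted p = 0.000397), and the spread within CCK-EGFP cells was 0.07 (SD, n = 3). It was the only higher gene among the 10 of its family, of which 2 were lower and 7 did not pass.

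The lower anion exchangers were Slc26a6 and Slc26a11. Slc26a6, an apical exchanger of chloride, bicarbonate and oxalate, read 11.22, 10.99 and 12.19 against 13.14, 13.12 and 12.87 (log2 difference -1.57, SE 0.34, adjusted p = 0.0199). Its groups did not overlap, but the call ended without replicates 1 or 2 of CCK-EGFP or non-EGFP replicates 1 or 2 (largest adjusted p 0.0730). Slc26a11, a sulfate and anion carrier, read 4.99, 5.06 and 5.53 against 7.41, 6.99 and 7.30 (log2 difference -2.04, SE 0.23, adjusted p = 0.00236), and this call held without each array in turn.

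Slc26a3, the brush border exchanger that is lost in congenital chloride diarrhoea, missed the threshold on the probe set used. It read 9.35, 9.55 and 11.24 against 11.59, 11.66 and 11.94 (log2 difference -1.68, adjusted p = 0.0539), and with the replicate number as a block it passed (adjusted p = 0.0422). CCK-EGFP replicate 3 was the highest of its group and nearest to the non-EGFP arrays. Without that array the difference was -2.28 (adjusted p = 0.00314), and 2 of its other probe sets were lower, by -3.002 and -2.31. Slc26a2, a sulfate carrier, was level, at 11.54 ± 0.20 and 11.54 ± 0.22 (adjusted p = 0.999). Slc26a1, Slc26a5, Slc26a7 and Slc26a10 were below background in both groups.

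Of the 10 Slc4 genes, most of which carry bicarbonate, 2 were higher, 4 lower and 4 not past the threshold. The higher genes were both chloride-bicarbonate exchangers. Slc4a8, a sodium-driven exchanger, read 6.94, 7.82 and 5.78 against 4.49, 3.997 and 3.88, at least 4.75-fold higher (log2 difference 2.73, SE 0.51, adjusted p = 0.0133). All 5 of its probe sets were positive, from 0.52 to 3.51, and 4 of them passed. Slc4a3, a sodium-independent exchanger of heart and brain, read 5.75, 6.94 and 6.86 against 4.89, 4.83 and 4.41 (log2 difference 1.81, SE 0.36, adjusted p = 0.0162), a call that ended without CCK-EGFP replicate 2 (adjusted p = 0.0641).

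Sodium-bicarbonate cotransporters were among the lower genes. Slc4a4, the electrogenic cotransporter of the basolateral membrane, read 8.72, 8.73 and 9.95 against 11.11, 11.08 and 11.10. The non-EGFP arrays lay within 0.03 of each other, and the difference was -1.97 (SE 0.36, adjusted p = 0.0123, or 0.0516 without CCK-EGFP replicate 2). Its 5 probe sets were all negative and 4 passed. Slc4a5, a second electrogenic cotransporter, read 5.98, 6.11 and 6.55 against 8.02, 8.83 and 8.93 (log2 difference -2.38, SE 0.31, adjusted p = 0.00378). Slc4a10, a sodium-coupled bicarbonate carrier, read 5.54, 4.97 and 4.03 against 7.21, 6.05 and 7.26 (log2 difference -1.99, SE 0.49, adjusted p = 0.0312). The call of Slc4a5 held without each array, and that of Slc4a10 ended without replicates 2 or 3 of CCK-EGFP or non-EGFP replicates 1 or 3 (largest adjusted p 0.0905).

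Slc4a11, which conducts protons and ammonia and is known from the corneal endothelium, differed most among the lower genes. It read 4.24, 4.58 and 5.72 against 8.90, 8.48 and 7.55, 11.0-fold lower (log2 difference -3.46, SE 0.50, adjusted p = 0.00551). The first pair of CCK-EGFP arrays were below background, and its other, dimmer probe set differed by -0.66. Slc4a2, an anion exchanger of most epithelia, averaged 10.96 ± 0.27 against 11.20 ± 0.06 (adjusted p = 0.389). The red cell exchanger Slc4a1 overlapped between the groups (4.31 to 5.43 against 4.23 to 6.49). Slc4a9 differed by -1.21 (adjusted p = 0.0580), and the adaptor gene Slc4a1ap by -0.08 (adjusted p = 0.867).

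Among sodium-proton exchangers, the brush border form was lower and a Golgi form higher. Slc9a3, which absorbs most luminal sodium in the small intestine, read 8.98, 8.95 and 10.48 against 11.91, 12.05 and 11.64 (log2 difference -2.39, SE 0.44, adjusted p = 0.0122). Both of its probe sets were lower, by -2.39 and -1.43. Slc9a7, an exchanger of the trans-Golgi network, read 7.60, 7.17 and 7.28 against 3.29, 6.27 and 3.77, at least 6.73-fold higher (log2 difference 2.91, SE 0.75, adjusted p = 0.0356). One non-EGFP array, replicate 2, was high. The call of Slc9a7 held in 1 of 6 fits without 1 array, ending without any array other than non-EGFP replicate 2 (adjusted p up to 0.105), and it missed the threshold with replicate as a block (adjusted p = 0.0509) and after a second quantile normalization (0.0529).

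The other 7 genes of the Slc9 group did not pass. Slc9a2, another apical exchanger, averaged 10.68 ± 0.57 against 10.64 ± 0.21 (adjusted p = 0.932), and the endosomal Slc9a9 spread from 5.01 to 7.19 and from 4.77 to 7.08. Slc9a3r1, the scaffold that anchors Slc9a3 at the brush border, averaged 12.80 ± 0.17 against 13.30 ± 0.13 (log2 difference -0.50, adjusted p = 0.0996). Another of its 3 probe sets was lower by -1.21. Slc9a3r2, Slc9a5 and Slc9a8 differed by 0.03, -0.91 and -0.31, and Slc9a4 was below background.

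Of 8 cation-chloride cotransporters, 1 was higher and 0 lower. Slc12a5, the potassium-chloride cotransporter that keeps chloride low in neurons, read 6.75, 6.58 and 7.18 in CCK-EGFP cells. Its non-EGFP values were 3.78, 3.58 and 3.51, all below background, so that it was at least 4.72-fold higher (log2 difference 3.21, SE 0.22, adjusted p = 0.000417). The call held without each array, while the other probe set, below background in both groups, differed by -0.28. Slc12a2, the sodium-potassium-chloride cotransporter that loads cells with chloride, read 10.41, 9.94 and 10.30 against 9.54, 8.93 and 10.04. These arrays overlapped, and the difference of 0.71 (SE 0.32) did not pass (adjusted p = 0.144).

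Slc12a7, a potassium-chloride cotransporter of epithelia, averaged 11.81 ± 0.12 against 11.72 ± 0.19 (adjusted p = 0.724), yet its second probe set was lower by -1.07. Slc12a8 differed by 0.56 (adjusted p = 0.230) and its second probe set was higher by 1.49. Slc12a4 and Slc12a9 differed by -1.24 and -0.08 without passing. The kidney cotransporters Slc12a1 and Slc12a3, targets of loop and thiazide diuretics, were below background in both groups.

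Kinases that act on these cotransporters were measured beside them. Of 11 genes for WNK-SPAK kinases and partners that hold or regulate carriers, 4 were higher and 4 lower. With replicate as a block the counts were 3 and 3, since Wnk1 (adjusted p = 0.0565) and Sgk1 (0.0617) did not pass. Wnk4, a kinase of the chloride-sensing WNK family, was 21.3-fold higher, at 10.84 ± 0.18 against 6.42 ± 0.91 (log2 difference 4.42, adjusted p = 0.00152). Stk39, the SPAK kinase that WNK kinases activate and that phosphorylates the cotransporters, was higher by 1.92 (adjusted p = 0.00537) and Wnk3, below background in non-EGFP cells, by at least 1.29-fold (adjusted p = 0.0376). Chp2, a cofactor of sodium-proton exchangers, was lower by -1.87 (adjusted p = 0.00520). Oxsr1 (-0.28) and Nedd4l (-0.18) did not pass (adjusted p = 0.393 and 0.542).

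Of 3 sodium-phosphate cotransporters of the Slc34 family, 0 were higher and 1 was lower. Slc34a2, the sodium-phosphate cotransporter of the intestinal brush border, read 9.30, 8.40 and 10.46 against 11.33, 11.36 and 11.76 (log2 difference -2.10, SE 0.51, adjusted p = 0.0293). Its call ended without any array other than CCK-EGFP replicate 3 (adjusted p up to 0.0904). Slc34a1, the form of the kidney proximal tubule, read 7.63, 8.68 and 5.63 against 5.12, 5.08 and 4.18. All CCK-EGFP arrays were above all non-EGFP arrays, but the difference of 2.52 (SE 0.76) missed the threshold (adjusted p = 0.0548), passing with replicate as a block (0.0275) and without CCK-EGFP replicate 3 (0.00723). Slc34a3 differed by -0.91 (adjusted p = 0.0550). Of the widely expressed pair, Slc20a1 averaged 9.72 ± 0.51 against 9.86 ± 0.25 (adjusted p = 0.746). Slc20a2, singled out after its values were seen, differed by -1.08 (adjusted p = 0.0536, or 0.0452 with the block).

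The zinc carrier families, Slc30 and Slc39, made up 24 of the 81 genes, and 12 of these genes were called, 6 higher and 6 lower. That is 50% of the 24, where 24.1% of all genes were called. A group mean was above background for 21 of the 24, and 30.8% of all such genes were called. With replicate as a block 4 of these genes were higher and 6 lower. Carriers of the Slc39 family, the ZIP proteins, bring zinc into the cytosol from outside or from vesicles. Carriers of the Slc30 family, the ZnT proteins, move it out of the cytosol, apart from Slc30a10, a manganese exporter counted here by its family. Of 14 Slc39 genes 5 were higher and 3 lower, or 3 and 3 with the block. Of 10 Slc30 genes 1 was higher and 3 lower, with the block as well. The median difference was 0.26 in the Slc39 family and -0.30 in the Slc30 family, against -0.17 over all genes.

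**Figure D3:**
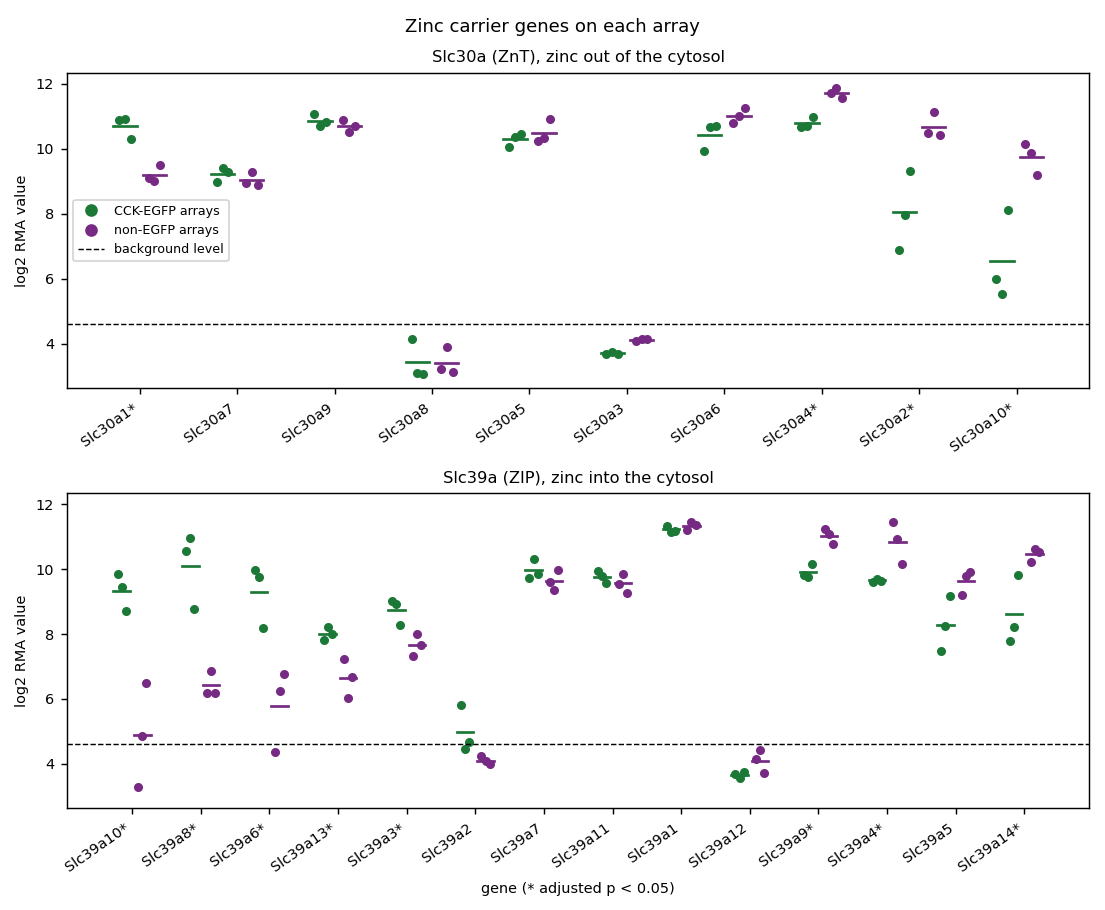
Log2 values of the 24 genes of the zinc carrier families Slc30 and Slc39 on each array, with CCK-EGFP arrays in green and non-EGFP arrays in purple. Short lines mark the group means, and the background level of 4.60 is dashed. Slc39a10, Slc39a8 and Slc39a6 are higher by at least 3.51 in CCK-EGFP cells, while Slc30a10 and Slc30a2 are lower, with differences of -3.19 and -2.62.

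The 3 largest increases were in Slc39a10, Slc39a8 and Slc39a6. Slc39a10 read 9.85, 9.44 and 8.71 against 3.28, 4.87 and 6.50. The non-EGFP arrays spread over more than 3 units, and 1 of them was below background. Slc39a10 differed by 4.46 (SE 0.79, adjusted p = 0.0110). Its other probe set differed by 2.08. Slc39a6, its close relative, with which it is known to form a heteromer at the plasma membrane, read 9.96, 9.74 and 8.196 against 4.36, 6.25 and 6.76 (log2 difference 3.51, SE 0.74, adjusted p = 0.0188). This call ended without either of CCK-EGFP replicates 1 and 2 (adjusted p up to 0.0737). Of the other probe sets of Slc39a6, 1 was higher, by 1.64, and those at 0.67 and -0.16 did not pass. In both genes non-EGFP replicate 1 was the lowest array.

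Slc39a8 and Slc39a14, relatives that carry manganese and iron as well as zinc, moved in opposite directions. Slc39a8 read 10.56, 10.96 and 8.77 against 6.199, 6.87 and 6.18, 12.8-fold higher (log2 difference 3.68, SE 0.58, adjusted p = 0.00743). The call held without each array, though the second probe set differed by 0.68 (adjusted p = 0.490). Slc39a14 read 7.80, 8.23 and 9.81 against 10.23, 10.62 and 10.53 (log2 difference -1.85, SE 0.51, adjusted p = 0.0442). All 4 of its probe sets were negative, from -2.79 to -1.85, and 3 passed, but the call on the probe set used ended without any array other than CCK-EGFP replicate 3 (adjusted p up to 0.138).

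Slc39a13, a ZIP protein of intracellular membranes, read 7.81, 8.22 and 8.01 against 7.22, 6.03 and 6.67 (log2 difference 1.37, SE 0.33, adjusted p = 0.0280). Slc39a3, of the plasma membrane, read 9.03, 8.93 and 8.29 against 7.31, 7.997 and 7.68 (log2 difference 1.09, SE 0.29, adjusted p = 0.0391). Both calls were close to the threshold. With the replicate number as a block neither passed (adjusted p = 0.0580 and 0.0590). Leaving out single arrays ended the call of Slc39a13 for any array other than non-EGFP replicate 1 (adjusted p up to 0.103) and that of Slc39a3 for any array other than CCK-EGFP replicate 3 (up to 0.129). The second probe set of Slc39a3 differed by -1.18, so its direction depended on the probe set.

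The lower ZIP genes besides Slc39a14 were Slc39a4 and Slc39a9. Slc39a4, the apical importer of dietary zinc that is mutated in acrodermatitis enteropathica, read 9.61, 9.71 and 9.64 against 11.45, 10.94 and 10.17. Its CCK-EGFP arrays lay close together, whereas the non-EGFP arrays spread (log2 difference -1.20, SE 0.33, adjusted p = 0.0448). It did not pass with the block (0.0581) or without any array other than non-EGFP replicate 3 (up to 0.123). Slc39a9, a ZIP protein of the Golgi, read 9.81, 9.75 and 10.16 against 11.24, 11.08 and 10.78 (log2 difference -1.13, SE 0.22, adjusted p = 0.0146, and up to 0.0658 without CCK-EGFP replicate 1 or 2). Its 3 probe sets were all negative.

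Other ZIP genes did not pass. Slc39a1 averaged 11.22 ± 0.10 against 11.33 ± 0.13 (adjusted p = 0.644), Slc39a7, of the endoplasmic reticulum, differed by 0.32, Slc39a11 by 0.21 and Slc39a2 by 0.88. Slc39a5, a basolateral zinc carrier of enterocytes singled out after its values were seen, read 7.47, 8.24 and 9.16 against 9.20, 9.79 and 9.92 (adjusted p = 0.0727, or 0.0339 with the block). Slc39a12 was below background in both groups.

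On the export side, Slc30a1 was higher. This gene, which encodes the zinc exporter of the plasma membrane and is known to be induced by zinc through the metal-responsive factor Mtf1, read 10.90, 10.93 and 10.29 against 9.11, 9.02 and 9.50. All CCK-EGFP arrays exceeded all non-EGFP arrays (2.82-fold, log2 difference 1.497, SE 0.26, adjusted p = 0.00968), and its second probe set differed by 1.19 without passing (adjusted p = 0.194).

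Slc30a10 and Slc30a2 were lower. Slc30a10, a manganese exporter, read 5.9995, 5.54 and 8.13 against 10.16, 9.89 and 9.19, 9.11-fold lower (log2 difference -3.19, SE 0.68, adjusted p = 0.0200), and both of its probe sets passed. Slc30a2, which loads zinc into secretory vesicles and is known from Paneth, pancreatic and mammary cells, read 6.89, 7.98 and 9.32 against 10.48, 11.13 and 10.43 (log2 difference -2.62, SE 0.60, adjusted p = 0.0247). In both genes CCK-EGFP replicate 3 was nearest the non-EGFP arrays. The calls ended without replicates 1 or 2 of CCK-EGFP or non-EGFP replicates 1 or 2 for Slc30a10 (adjusted p up to 0.0709), and without CCK-EGFP replicate 2 or non-EGFP replicate 1 or 2 for Slc30a2 (up to 0.0857). Of 5 Paneth markers 0 were called without the block. With replicate as a block 4 were lower, Lyz2 (adjusted p = 0.0253), Mmp7 (0.0352), Ang4 (0.0298) and Itln1 (0.0247). Their mean level on replicates 1 to 3 was 8.21, 7.72 and 10.09 in CCK-EGFP cells against 9.92, 9.35 and 11.03, lower in CCK-EGFP cells in each of the 3 pairs. Their part in the value of Slc30a2 was not tested.

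Slc30a4, an endosomal ZnT protein, was lower by -0.93 (SE 0.19, adjusted p = 0.0187), and its call ended without replicates 1 or 2 of CCK-EGFP or non-EGFP replicate 2 (up to 0.0800). Carriers of the early secretory pathway did not pass, with Slc30a5 at -0.19, Slc30a6 at -0.58 and Slc30a7 at 0.18. Slc30a9 averaged 10.86 ± 0.19 against 10.71 ± 0.17 (adjusted p = 0.568). Slc30a8, which fills the insulin granules of pancreatic beta cells with zinc, read 4.14, 3.09 and 3.08 against 3.22, 3.90 and 3.15, below background on every array. The synaptic vesicle carrier Slc30a3 was below background as well.

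Promoters of the Slc30 genes were searched for the core of the metal response element, the site of Mtf1, because these genes took both directions. The search used TGCACNC and TGCGCNC on both strands, in the 250 bases before each RefSeq gene start (GRCm38.p6). Of the 81 genes, 65 matched a promoter entry. The core was in 6 of 10 Slc30 promoters, from 9 genes, and in 5 of 15 Slc39 promoters, from 11 genes. Families that do not carry zinc held it too, with 3 of 3 Slc41 and 2 of 3 Slc34 promoters, but 0 of 8 in Slc26. Of the 82 promoters of all matched members 34.1% held it, and of all 32851 promoters of the same length 21.4%. All 4 called Slc30 genes held it, the higher Slc30a1 and the lower Slc30a2, Slc30a4 and Slc30a10, as did Slc30a3 and Slc30a5, which did not pass. The sequences of Slc30a1, Slc30a4 and Slc30a10 run 5′ to 3′ on the gene's strand, with matches in capitals.
Slc30a1, chr1:191906531-191906780, plus strand: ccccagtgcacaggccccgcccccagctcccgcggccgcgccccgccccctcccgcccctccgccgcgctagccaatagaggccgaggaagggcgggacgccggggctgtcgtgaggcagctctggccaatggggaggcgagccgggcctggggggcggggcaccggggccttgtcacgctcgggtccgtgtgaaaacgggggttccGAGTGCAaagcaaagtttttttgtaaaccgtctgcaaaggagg
Slc30a4, chr2:122702664-122702913, minus strand: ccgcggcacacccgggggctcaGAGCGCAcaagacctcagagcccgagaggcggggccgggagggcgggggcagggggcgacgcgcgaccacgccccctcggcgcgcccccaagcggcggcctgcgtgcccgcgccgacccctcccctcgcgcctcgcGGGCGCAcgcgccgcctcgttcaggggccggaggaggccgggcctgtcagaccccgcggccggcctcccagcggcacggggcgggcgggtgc
Slc30a10, chr1:185454598-185454847, plus strand: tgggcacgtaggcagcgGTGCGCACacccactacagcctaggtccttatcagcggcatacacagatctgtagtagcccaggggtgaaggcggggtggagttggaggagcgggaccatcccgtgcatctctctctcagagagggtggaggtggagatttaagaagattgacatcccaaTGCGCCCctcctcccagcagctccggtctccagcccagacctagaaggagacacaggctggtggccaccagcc
The match of Slc30a1 begins 43 bases before the start. In Slc30a4 they begin 228 and 92 bases before it, and in Slc30a10 overlapping matches on the 2 strands begin at 233 and 232 bases and another at 73. A match describes the letters and is not a measured site.

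Metallothioneins, which buffer zinc and copper in the cytosol and are also targets of Mtf1, did not pass where they were bright. Mt1 averaged 12.57 ± 0.20 against 12.74 ± 0.24 and Mt2 11.66 ± 0.60 against 12.11 ± 0.55 (adjusted p = 0.573 and 0.406). Mt2 read lower in CCK-EGFP cells at each replicate number, and neither gene passed with the block (adjusted p = 0.621 and 0.131). Of 6 genes in this list 1 was higher, Mt4, by at least 2.49-fold (adjusted p = 0.0178), and 0 were lower.

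Iron and copper carriers of the Slc11, Slc40 and Slc31 families were lower or did not pass on the probe set used. Slc11a2, the importer of ferrous iron at the brush border, read 6.89, 7.22 and 7.38 against 9.35, 9.05 and 8.16 (log2 difference -1.69, SE 0.34, adjusted p = 0.0169). Its 4 probe sets were all negative, from -2.21 to -1.30. Slc40a1, ferroportin, which exports iron to the blood, read 9.20, 8.96 and 10.23 against 11.44, 10.75 and 10.54 (log2 difference -1.45, SE 0.41, adjusted p = 0.0455). The groups did not overlap for either gene. The call of Slc11a2 ended without replicates 1 or 2 of CCK-EGFP or non-EGFP replicate 2 (adjusted p up to 0.0637). That of Slc40a1 ended with the block (0.0753), after a second quantile normalization (0.0514) and without any array other than CCK-EGFP replicate 3 (up to 0.141). Slc11a1, the phagosomal form of macrophages, was below background in both groups.

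Of 14 other iron-handling genes 0 were higher and 2 lower. The block also gave 2 lower, with Heph lost and Cybrd1, a ferric reductase of the brush border, gained (adjusted p = 0.0445). Heph, the ferroxidase hephaestin that works with ferroportin, was lower by -1.06 (adjusted p = 0.0268, or 0.0571 with the block), and Aco1, the iron regulatory protein and cytosolic aconitase, by -1.06 (adjusted p = 0.0202). The ferritin heavy chain Fth1 (-0.33) and the iron chaperone Pcbp1 (0.49) did not pass (adjusted p = 0.217 and 0.0914).

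Slc31a1, the high-affinity copper importer, was lower by -0.91 (SE 0.20, adjusted p = 0.0219), and without replicates 1 or 2 of CCK-EGFP or non-EGFP replicate 2 it did not pass (up to 0.0904). Slc31a2, a copper carrier of endosomes and lysosomes, overlapped on the probe set used, at 7.03 ± 0.54 against 6.84 ± 0.22 (adjusted p = 0.671). Its second probe set read 7.81, 7.97 and 7.94 against 6.45, 4.98 and 5.35, higher by 2.31. With the mean of both probe sets Slc31a2 was higher by 1.25 (adjusted p = 0.0101). Of 9 other copper genes 0 were higher and 2 lower, among them the copper pump Atp7b at -2.02 (adjusted p = 0.0216) and Steap4, below background in both groups (adjusted p = 0.0312, or 0.0648 with the block). The chaperones Atox1 (0.05) and Cox17 (-0.10) did not pass (adjusted p = 0.873 and 0.663).

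None of the 3 magnesium carriers of the Slc41 family passed by limma, at an unadjusted p under 0.05 in 1 of them. Slc41a2 averaged 11.00 ± 0.06 against 11.18 ± 0.11 (adjusted p = 0.444), and Slc41a3 differed by -0.76. Slc41a1 read 7.75, 7.52 and 8.26 against 7.27, 3.33 and 7.54, with non-EGFP replicate 2 far below the others (log2 difference 1.80, adjusted p = 0.249). Of 13 genes for magnesium and calcium entry 2 were higher and 2 lower, or 1 and 1 with the block. Nipa1, a magnesium transporter, was at least 4.39-fold higher (adjusted p = 0.0368, or 0.0780 with the block) and Cnnm3 was higher by 1.59 (adjusted p = 0.00376), while Cnnm4, a basolateral magnesium exporter, was lower by -1.13 (adjusted p = 0.0117) and the apical magnesium channel Trpm6 by -1.13 (adjusted p = 0.0320, or 0.0632 with the block). S100g, the calcium buffer of enterocytes, differed by -0.88 (adjusted p = 0.123), and Nipa2 by -0.35 (adjusted p = 0.247).

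Of 14 pump genes, which build the gradients these carriers use, 5 were higher and 1 lower, and the median difference was 0.65. The lower gene, Atp2b3, was below background in both groups, and with replicate as a block 4 were higher, as Atp2a2 did not pass (adjusted p = 0.0567). The calcium pumps Atp2b2, at least 4.83-fold (adjusted p = 0.0182), Atp2c1, of the Golgi, by 2.02 (adjusted p = 0.00310) and Atp2a3, of the endoplasmic reticulum, by 1.61 (adjusted p = 0.0169) were higher. The sodium pump subunit Atp1b3 was higher by 1.65 (adjusted p = 0.00761), while Atp1b1 (-0.07) and Atp2b1 (0.53) did not pass (adjusted p = 0.788 and 0.114).

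Carbonic anhydrases, which supply bicarbonate to the exchangers, numbered 16, of which 3 were higher and 3 lower, or 2 lower with the block, where Car14 did not pass (adjusted p = 0.0530). Car8, a catalytically inactive member that binds the inositol trisphosphate receptor, was higher by 4.20 (adjusted p = 0.00223), Car6 by at least 4.02-fold (adjusted p = 0.0496) and Car11, another inactive member, by at least 2.86-fold (adjusted p = 0.00652). Car9, a membrane-bound enzyme, was lower by -2.34 (adjusted p = 0.00320). The enzymes Car2 (-0.61) and Car4 (-0.85) did not pass (adjusted p = 0.185 and 0.292). Of 7 anion channel genes 1 was higher, Ano1, by 2.77 (adjusted p = 0.0343), and 2 were lower, the chloride channel Clcn2 by -2.53 (adjusted p = 0.00639) and Best1 by -2.29 (adjusted p = 0.0364). The cystic fibrosis channel Cftr differed by -2.80 with a CCK-EGFP spread of 2.13 (SD, n = 3) and did not pass (adjusted p = 0.0845), nor did Clca1 (-0.75, adjusted p = 0.0747).

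Probe sets of the same gene were a second source of spread. Of the 81 genes, 45 had more than 1 probe set, and the 157 probe sets in all gave 21 higher and 27 lower when each was tested alone, where 18.9% of all probe sets were called. Of 19 called genes with several probe sets, 14 had all of them on the same side, and 5 (Slc8a1, Slc12a5, Slc24a2, Slc39a3 and Slc39a6) had 1 on the other side. No gene had probe sets past the threshold in opposite directions. In 5 genes that did not pass, Slc26a3, Slc9a3r1, Slc12a7, Slc12a8 and Slc31a2, another probe set did.

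**Figure D4:**
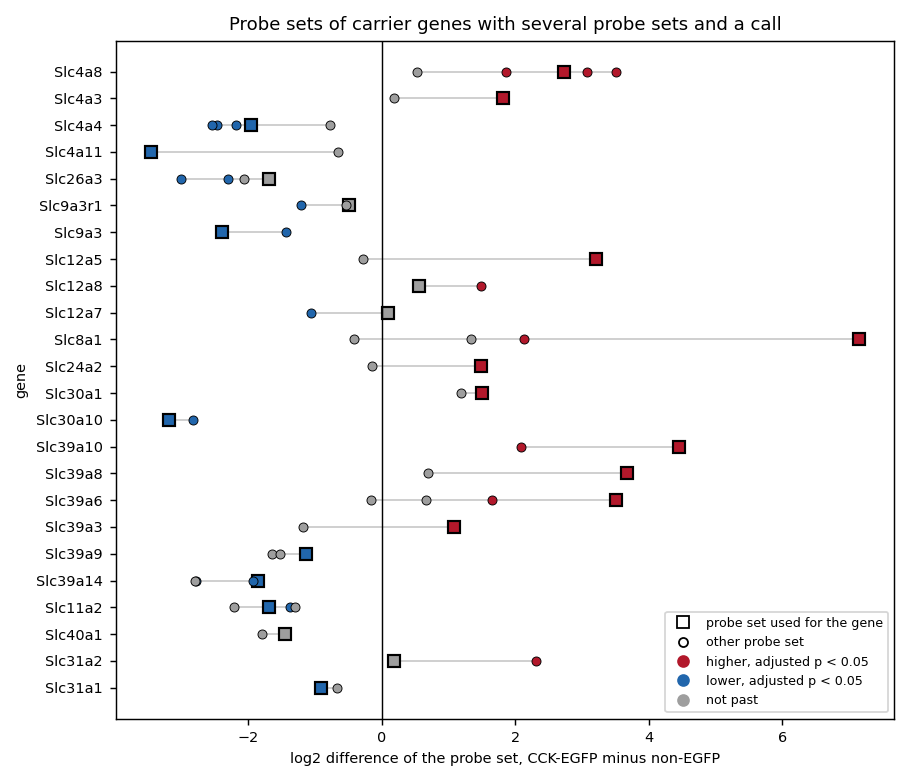
Log2 difference of every probe set (CCK-EGFP minus non-EGFP) for genes with several probe sets where the gene or at least 1 probe set, tested alone among all probe sets, was called. Squares mark the probe set used for the gene, and Slc8a1 spans the widest range, from -0.41 to 7.15.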

How the data were processed

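Sorted CCK-EGFP and non-EGFP intestinal cells were profiled on 3 arrays each. Per the labels' protocols, total RNA in picogram quantity was amplified and biotin-labelled. The authors deposited log2 values from RMA, per the submitters' processing notes, with no version or options named there. RMA normalizes quantiles between arrays, which can shrink a broad shift, and gives no detection call. Of 45101 probe sets, 34945 had 1 gene symbol in the platform annotation, 932 had several and were left out, and 64 were controls. A gene was represented by the probe set of highest average level on the 6 arrays. The comparison of both groups used R 4.3.3 and limma 3.58.1, with two-sided moderated tests from lmFit and eBayes. P-values were adjusted by Benjamini-Hochberg across 18193 genes (threshold 0.05). The fit was also run on simulated data with independent noise on each array and few genes changed. Such data hold no deviations shared by replicate number, so the run cannot show how the fit behaves with them. Lower bounds used the background level of 4.60. The 3 arrays per group limit the precision.

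Deviations from group means were correlated across genes, which are not independent replicates. They gave 0.270, 0.159 and 0.219 between arrays of the same replicate number and -0.245 to -0.0109 between others. Deviations cancel within each group, so positive values between equal numbers by themselves push the others negative. The main fit did not use the replicate number, and its SEs and adjusted p-values are those given unless another setting is named. A fit that took equal numbers as pairs, with the number as a block, was set beside it. The labels do not say what a number marks. Values with the replicate number as a block stand beside the calls of members, partner and marker genes named in the text that they change. Members called by at least 1 on the log2 scale are given on every array, and of the others the brightest per family and those with a called probe set. From partner lists up to 4 called genes and 2 others are named. The members and lists were chosen with earlier results of these data known.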

Additional observations from a re-analysis of the deposited data

Results flagged for a closer look

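One probe set outside the comparisons is annotated to Slc9a7 together with 6330509M05Rik and was not used for any gene. It read 7.32, 8.19 and 7.95 in CCK-EGFP cells against 4.64, 4.11 and 5.53 in non-EGFP cells, a log2 difference of 3.05, so its signal in CCK-EGFP cells lay above every non-EGFP array. Which of the 2 genes gives the signal cannot be told apart.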

How the results depend on the processing

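Of the 30 called carriers, 11 kept their call under all 9 alternatives that used every array and in all 6 fits without 1 array. Fits without 1 array gave 7 to 12 higher and 4 to 18 lower members, and 1365 to 2486 higher and 505 to 1962 lower genes in all. With arrays centred on their medians 27 members and 3605 genes were lower. The replicate block gave 11 higher and 18 lower members (21.3% of all genes were called), ended 5 calls, those of Slc9a7, Slc39a13, Slc39a3, Slc39a4 and Slc40a1, added 4 and changed no other call of a member. Other alternatives, which were filters on dim genes, array weights, robust eBayes with a trend, a second quantile normalization and other choices of probe set, gave 12 to 14 higher and 18 to 23 lower members. Direction turned for Slc39a3 with the mean of its probe sets (-0.044), and on a single other probe set for Slc39a3 (-1.18), Slc8a1 (-0.41), Slc12a5 (-0.28), Slc39a6 (-0.16) and Slc24a2 (-0.15). The cause was not tested. Below the background level a difference has no firm size.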
